A study of Homo sapiens with 9 samples.

Results

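The genes of 10 mechanically gated or osmosensitive ion channels were examined: TRPV4, TRPV2, TRPM7, TRPM4, TRPC1, PIEZO1, PKD2, KCNK2, TMEM63A and TMEM63B. They were picked by name, for what the channels are known to sense, with earlier results of these data known, and relatives with almost no counts were not among them. They were 10 of the 60664 genes listed in the count files, and all 10 were among the 18264 genes that passed the filter on low counts. RNA came from MDA-MB-231, an established mesenchymal-like human breast cancer line, in 9 samples, with 3 samples in each of 3 groups, all on day 6. SC cells stably carried a scramble control hairpin and were kept in medium of 0.77 cP or 8 cP, and shTRPV4 cells stably carried a hairpin against TRPV4 and were kept at 8 cP. Both lines were made with lentiviral vectors and puromycin, so all 3 groups carry a hairpin, and the viscosity of the medium was raised with methylcellulose. shTRPV4 cells at 0.77 cP were not analysed here, so the hairpin could be compared with the scramble control at 8 cP only. The labels do not say whether the 3 samples of a group were separate cultures, and p-values therefore measure the spread between these samples, which may be technical.

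Mechanosensitive channels open when the membrane is stretched, when the cell swells or when the cytoskeleton pulls on them. TRPV4, PIEZO1, TRPV2, TRPM7 and the polycystin PKD2 pass calcium together with other cations, whereas TREK-1, the product of KCNK2, passes potassium out of the cell, which drives the membrane potential in the other direction. In migrating and confined cells such channels are known to link swelling and membrane tension to calcium, actin and myosin. When 1 channel is depleted, another one of the same kind can in principle carry part of its current, and the levels of the other 9 channels beside the TRPV4 knockdown address this at the level of RNA.

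Of the 10 genes, KCNK2 and TRPM7 alone were called higher in both comparisons that share the SC samples at 8 cP. The sequences at their start sites are shown for that reason. Over all tested genes, 9.57% were called higher between viscosities and 9.02% with the knockdown. The share called higher in both was not counted. With the knockdown, KCNK2 lost its call in 3 and TRPM7 in 5 of the 9 fits that left out 1 sample. RefSeq promoter windows on GRCh38.p14, each 300 bases long with 250 bases before a start site, were matched by symbol for 8 of the 10 genes. TRPV4 and TRPV2 were not matched. KCNK2 has a start site within chr1:215005292-215005591 and another within chr1:215082487-215082786, both on the plus strand, and TRPM7 has one within chr15:50686748-50687047 on the minus strand. Each window is written 5′ to 3′ along its gene. Capitals mark GGAATG, the core bound by TEAD factors, or CACGTG, the E-box.
KCNK2, upstream start: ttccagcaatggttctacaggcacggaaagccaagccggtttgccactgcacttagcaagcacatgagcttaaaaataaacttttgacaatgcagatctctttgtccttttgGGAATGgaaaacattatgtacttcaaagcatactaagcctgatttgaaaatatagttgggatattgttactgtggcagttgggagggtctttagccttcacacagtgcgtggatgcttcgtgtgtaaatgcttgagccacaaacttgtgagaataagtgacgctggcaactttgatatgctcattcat
KCNK2, downstream start: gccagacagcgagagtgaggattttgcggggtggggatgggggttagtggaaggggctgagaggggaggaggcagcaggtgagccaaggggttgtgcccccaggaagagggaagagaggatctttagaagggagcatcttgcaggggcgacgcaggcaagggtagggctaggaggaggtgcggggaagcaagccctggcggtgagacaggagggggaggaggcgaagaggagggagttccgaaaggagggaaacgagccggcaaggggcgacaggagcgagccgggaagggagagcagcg
TRPM7: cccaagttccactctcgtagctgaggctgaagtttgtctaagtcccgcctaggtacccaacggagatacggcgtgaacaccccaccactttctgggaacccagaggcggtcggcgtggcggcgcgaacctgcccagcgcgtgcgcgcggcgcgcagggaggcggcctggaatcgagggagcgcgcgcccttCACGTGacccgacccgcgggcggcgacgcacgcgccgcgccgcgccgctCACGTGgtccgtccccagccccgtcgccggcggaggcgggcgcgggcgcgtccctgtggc
Searched on both strands, the upstream KCNK2 window held GGAATG 1 time, the downstream KCNK2 window held none of the 5 motifs searched, and the TRPM7 window held CACGTG 2 times. GGAATG was also in a window of PKD2 and in one of TMEM63B. The motifs, which do not overlap one another in these windows, were TGANTCA of AP-1, TGACGTCA of cAMP response elements, GGAATG, the TATA box TATAAA and CACGTG. Over all 35116 promoter windows of this length, 14.03% held GGAATG and 7.26% held CACGTG, while TGANTCA was in 7.71%, TGACGTCA in 1.85% and TATAAA in 11.53%. Base composition set the start sites apart, with 42% G and C and 5 CpG in the upstream KCNK2 window, 64.7% and 14 CpG in the downstream one, and 73.3% and 48 CpG in the TRPM7 window. Over the same 35116 windows the medians were 58.7% G and C and 14 CpG. A match is a string of letters and not an occupied site.

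Total counts per sample ran from 64571681 to 103518036. Levels are given as CPM, counts scaled to a common library total after TMM, and the common biological coefficient of variation was 0.0633. All 6 markers of the line (VIM, CD44, EGFR, AXL, CAV1 and S100A4) were tested, and they summed to 4648 to 4898 CPM at SC 0.77 cP, 4831 to 4893 CPM at SC 8 cP and 4420 to 4613 CPM in shTRPV4 cells. Of 7 luminal markers, ESR1, PGR, FOXA1 and CDH1 had at most 12 counts in a sample, and the list summed to 1362 to 1525, 1116 to 1207 and 1013 to 1208 CPM in the same order of groups, nearly all of it KRT8. Among the leukocyte markers, FCGR3A was at 0 in all 9 samples, whereas CD14 had 265 to 558 counts in a sample. The list summed to 5.41 to 6.50, 3.88 to 4.66 and 3.09 to 4.20 CPM, nearly all of it CD14. Of 5 endothelial and fibroblast markers, CDH5 had at most 1 count, and the other 4 were detected. In a sample COL1A2 had 1191 to 3120 counts, COL1A1 331 to 650, PDGFRB 345 to 625 and PECAM1 181 to 468. The list summed to 41.9 to 51.6, 26.9 to 32.1 and 24.4 to 28.6 CPM. These sums were thus lower at 8 cP for the last 3 lists, and their part in the channel results was not tested.

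The channels spanned more than 2 orders of magnitude in level. Because long genes collect more reads, levels of different genes were compared per kilobase of merged exon (GENCODE 44, GRCh38). In SC cells at 0.77 cP, PIEZO1, the stretch-gated cation channel, was highest at 18.1 ± 0.820 CPM per kilobase (SD, n = 3), and the OSCA-family osmosensitive channel TMEM63B followed at 16.0 ± 0.322. PKD2, the polycystin of the endoplasmic reticulum and primary cilium, stood at 6.21 ± 0.235 and TMEM63A at 4.71 ± 0.138 CPM per kilobase. TRPM7, a cation channel fused to a kinase, stood at 2.42 ± 0.0488 and TRPC1, a subunit of receptor- and store-operated channels, at 2.27 ± 0.167, and the samples of this pair overlapped. TRPM4, which passes sodium and is opened by intracellular calcium, stood at 1.99 ± 0.147 CPM per kilobase. The lowest levels were those of TRPV2 at 0.631 ± 0.161, KCNK2 at 0.239 ± 0.0262 and TRPV4 at 0.119 ± 0.0142. All other neighbours in this order did not overlap between their samples. Among 18227 tested genes with a length, the mean level over the 9 samples gave percentiles of 84.8 for PIEZO1, 82.9 for TMEM63B, 30.7 for KCNK2, 29.8 for TRPV2 and 10.2 for TRPV4. These means include the shTRPV4 samples, with TRPV4 at 0.0200 and KCNK2 at 0.777 CPM per kilobase. The percentiles therefore do not describe SC cells at 0.77 cP, where KCNK2 was below TRPV2.

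**Figure D1:**
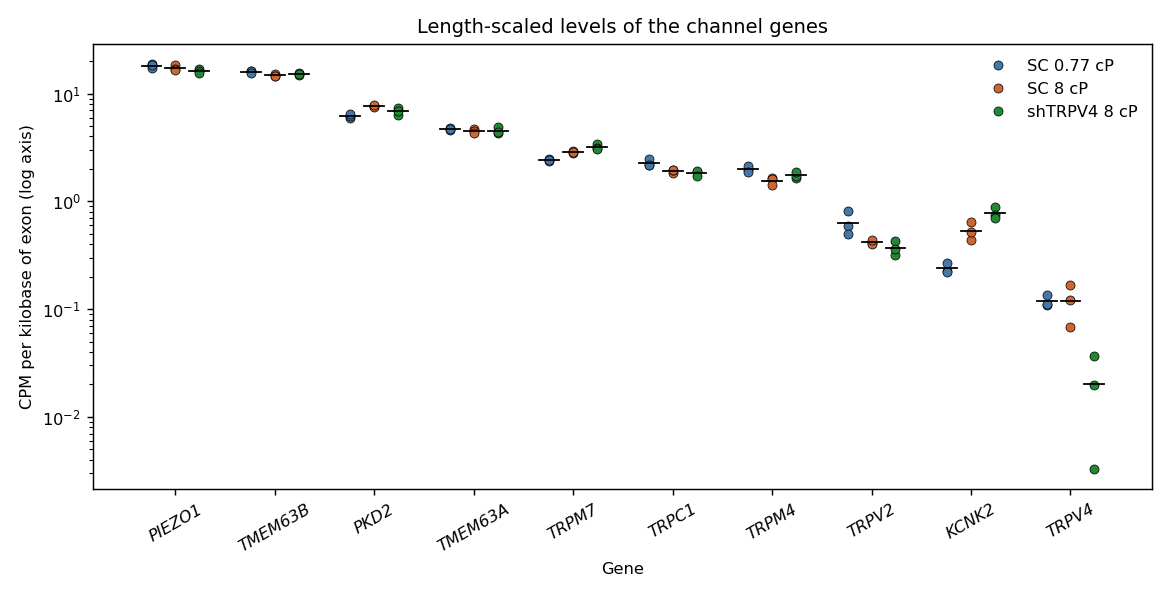
Level of each channel gene in CPM per kilobase of merged exon, on a log axis, with 1 point per sample, a bar at the mean of each group of 3 and the groups in colour. PIEZO1 and TMEM63B sit above 14 in all samples, KCNK2 climbs past TRPV2 from the first group to the last, and TRPV4 drops to 0.0200 in shTRPV4 cells.

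The order held between groups except at its lower end. At 8 cP, KCNK2 stood at 0.530 ± 0.102 CPM per kilobase in SC cells and TRPV2 at 0.417 ± 0.0181, and the samples of this pair overlapped. In shTRPV4 cells KCNK2 stood at 0.777 ± 0.0909 and TRPV2 at 0.370 ± 0.0575 without overlap, and TRPC1 at 1.84 ± 0.105 and TRPM4 at 1.74 ± 0.112 overlapped. With the canonical transcript in place of merged exons, TMEM63A (11.9 CPM per kilobase in SC cells at 0.77 cP) stood above PKD2 (6.75) and TRPM4 (3.23) above TRPM7 (2.89), and TRPM4 also stood above TRPC1 (2.40). The first and last of these changes were seen in all 3 groups, but at 8 cP TRPM4 stayed below TRPM7 in both lines, so the order within these pairs depends on which exons are counted.

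TRPV4, a calcium-permeable channel opened by swelling and warmth, is on chromosome 12 (109783087 to 109833406, minus strand), with 16 exons in its canonical transcript. It had 40, 28 and 54 counts in the SC samples at 0.77 cP, 64, 45 and 24 at 8 cP, and 7, 1 and 13 in the shTRPV4 samples. In CPM these were 0.424, 0.436 and 0.525, then 0.647, 0.466 and 0.264, then 0.0764, 0.0128 and 0.144. Every shTRPV4 sample was below every SC sample, and the SC samples at 8 cP lay on both sides of those at 0.77 cP. The log2 fold change of the hairpin at 8 cP was -2.51 ± 0.49 (SE, n = 3 per group), with a 95% interval from -3.55 to -1.46 and an adjusted p of 0.00219 in edgeR's quasi-likelihood test. Between viscosities it was -0.0087 in SC cells with an interval from -0.85 to 0.83 (adjusted p = 0.991 in edgeR), so a change of TRPV4 itself by less than about these bounds was not detectable at this depth. The SC samples at 8 cP spanned a wider range than those at 0.77 cP, with SDs of 0.191 and 0.0550 CPM.

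**Figure D2:**
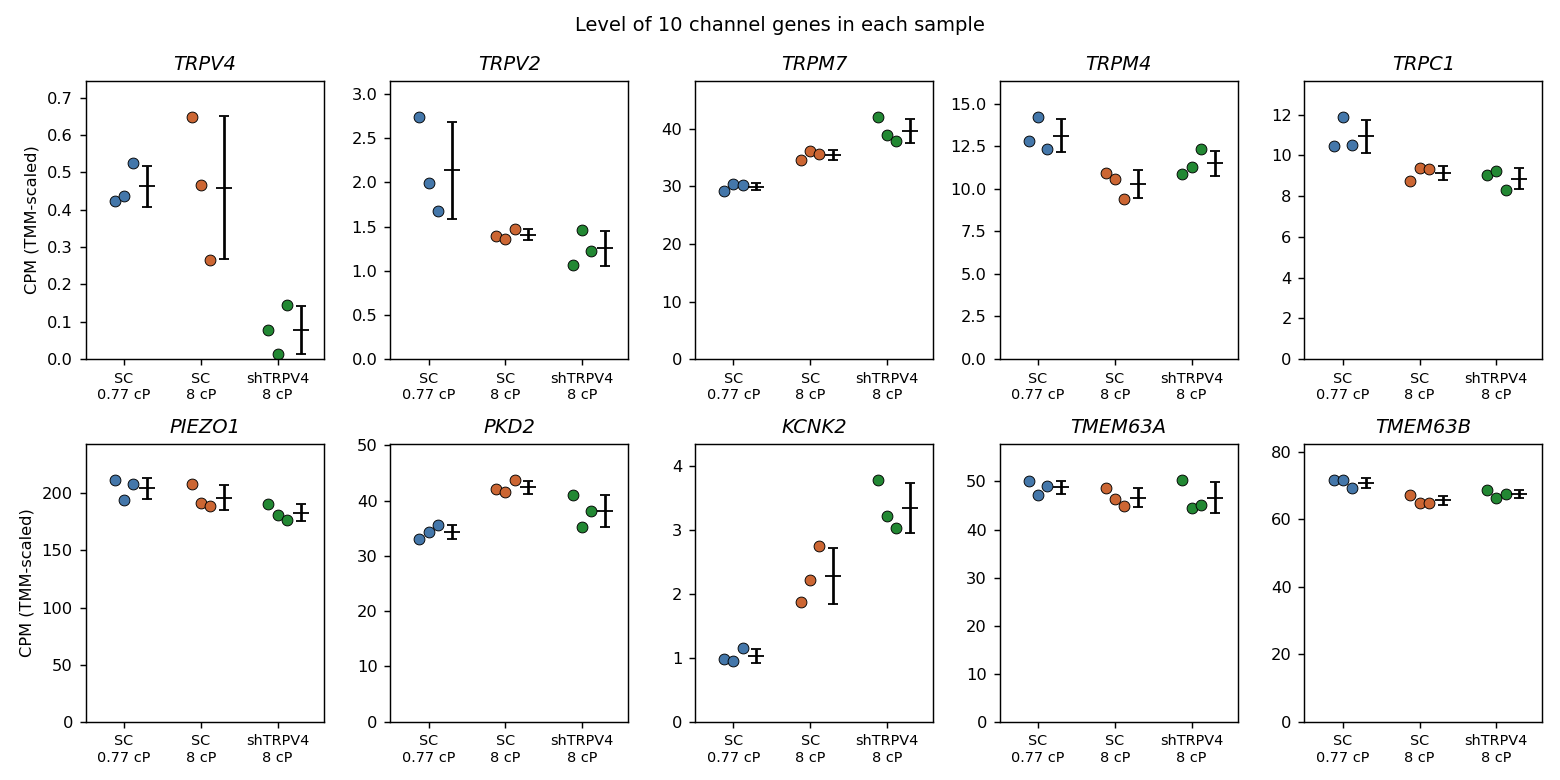
CPM of each of the 10 channel genes in every sample, each panel with its own axis from 0. Points are samples and the bar with whiskers is the mean ± SD of the 3 samples of a group. KCNK2 and TRPM7 step up from left to right without overlap, and TRPV4 is lowest in the shTRPV4 samples.

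The comparison of SC cells at 8 cP with SC cells at 0.77 cP asks which channels differ between viscosities in cells with the same hairpin. Viscosity and the methylcellulose that raised it cannot be told apart in these samples. Of the 10 genes, 6 passed the test, 3 higher (KCNK2, PKD2 and TRPM7) and 3 lower (TRPV2, TRPM4 and TRPC1). Over all tested genes, 19.3% passed, 9.57% higher and 9.69% lower. The median log2 fold change was -0.062 over the 10 genes and -0.0065 over all tested genes.

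KCNK2 (chromosome 1, 215005775 to 215237090, plus strand) encodes TREK-1, a two-pore potassium channel opened by membrane stretch. It stood at 0.976, 0.951 and 1.16 CPM at 0.77 cP, from 92, 61 and 119 counts, and at 1.87, 2.22 and 2.74 CPM at 8 cP, from 185, 214 and 249 counts. All samples at 8 cP were above all samples at 0.77 cP, and the log2 fold change was 1.13 ± 0.16 (SE; 95% interval 0.79 to 1.48; adjusted p = 0.000417 in edgeR), a 2.20-fold higher level. It was the only one of the 10 genes that passed with a doubling or halving. Over all tested genes 1.41% met this rule in either direction, 20 genes higher and 237 lower. KCNK2 passed in each of the 9 fits that left out 1 sample, with log2 fold changes from 0.99 to 1.27.

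PKD2 (chromosome 4, 88007635 to 88077777, plus strand), which forms calcium-permeable channels with polycystin-1, stood at 33.0, 34.4 and 35.6 CPM at 0.77 cP and at 42.1, 41.5 and 43.8 CPM at 8 cP. The 2 groups did not overlap, and the log2 fold change was 0.31 ± 0.057 (adjusted p = 0.00267 in edgeR). TRPM7 (chromosome 15, 50552473 to 50686797, minus strand), which carries magnesium and calcium, stood at 29.3, 30.4 and 30.2 CPM at 0.77 cP and at 34.5, 36.1 and 35.7 CPM at 8 cP. These too did not overlap, with a log2 fold change of 0.24 ± 0.051 (adjusted p = 0.00529 in edgeR). Both passed in each fit that left out 1 sample.

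TRPM4 (chromosome 19, 49157741 to 49211836, plus strand) stood at 12.8, 14.2 and 12.3 CPM at 0.77 cP and at 10.9, 10.6 and 9.37 CPM at 8 cP. It fell by 0.35 ± 0.081 on the log2 scale (adjusted p = 0.00877 in edgeR) with no overlap between groups. TRPC1 (chromosome 3, 142724034 to 142807888, plus strand) stood at 10.5, 11.9 and 10.5 CPM and then at 8.75, 9.36 and 9.34 CPM, and fell by 0.25 ± 0.076 on the log2 scale (adjusted p = 0.0295 in edgeR). TRPV2 (chromosome 17, 16415571 to 16437003, plus strand), the stretch- and lipid-sensitive relative of TRPV4, stood at 2.74, 1.995 and 1.67 CPM and then at 1.40, 1.36 and 1.48 CPM. Its highest sample at 0.77 cP lay well above the other two of that group, and it fell by 0.60 ± 0.18 on the log2 scale (adjusted p = 0.0296 in edgeR).

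The 3 decreases were less stable than the 3 increases. TRPM4 lost its call without SC 0.77 cP replicate 2 (log2 fold change -0.28, adjusted p = 0.0527 in edgeR) and without SC 8 cP replicate 3 (-0.28, adjusted p = 0.0603). TRPV2 and TRPC1 lost theirs when any SC sample other than SC 0.77 cP replicate 3 was left out. TRPV2 then had log2 fold changes from -0.63 to -0.37, the smallest without SC 0.77 cP replicate 1 (adjusted p = 0.205 in edgeR), and TRPC1 had values from -0.28 to -0.19, the smallest without SC 0.77 cP replicate 2 (adjusted p = 0.148). Of the 10 genes, 3 passed without SC 0.77 cP replicate 2, where 10.3% of all genes did, and 3 without SC 8 cP replicate 3, where 7.56% did.

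The other 3 genes beside TRPV4 did not pass. PIEZO1 (chromosome 16, 88715338 to 88785220, minus strand) ranged from 194 to 212 CPM at 0.77 cP and from 189 to 209 CPM at 8 cP, with a log2 fold change of -0.060 and a 95% interval from -0.17 to 0.048. TMEM63A (chromosome 1, 225845536 to 225882380, minus strand) had a log2 fold change of -0.064 with an interval from -0.18 to 0.053. TMEM63B (chromosome 6, 44126914 to 44155519, plus strand) ranged from 69.2 to 71.7 CPM at 0.77 cP and from 64.8 to 67.2 CPM at 8 cP. Its samples did not overlap, and its log2 fold change of -0.11 (interval -0.20 to -0.020) had an adjusted p of 0.0803 in edgeR. The intervals of PIEZO1 and TMEM63A thus leave out changes as large as that of PKD2.

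**Figure D3:**
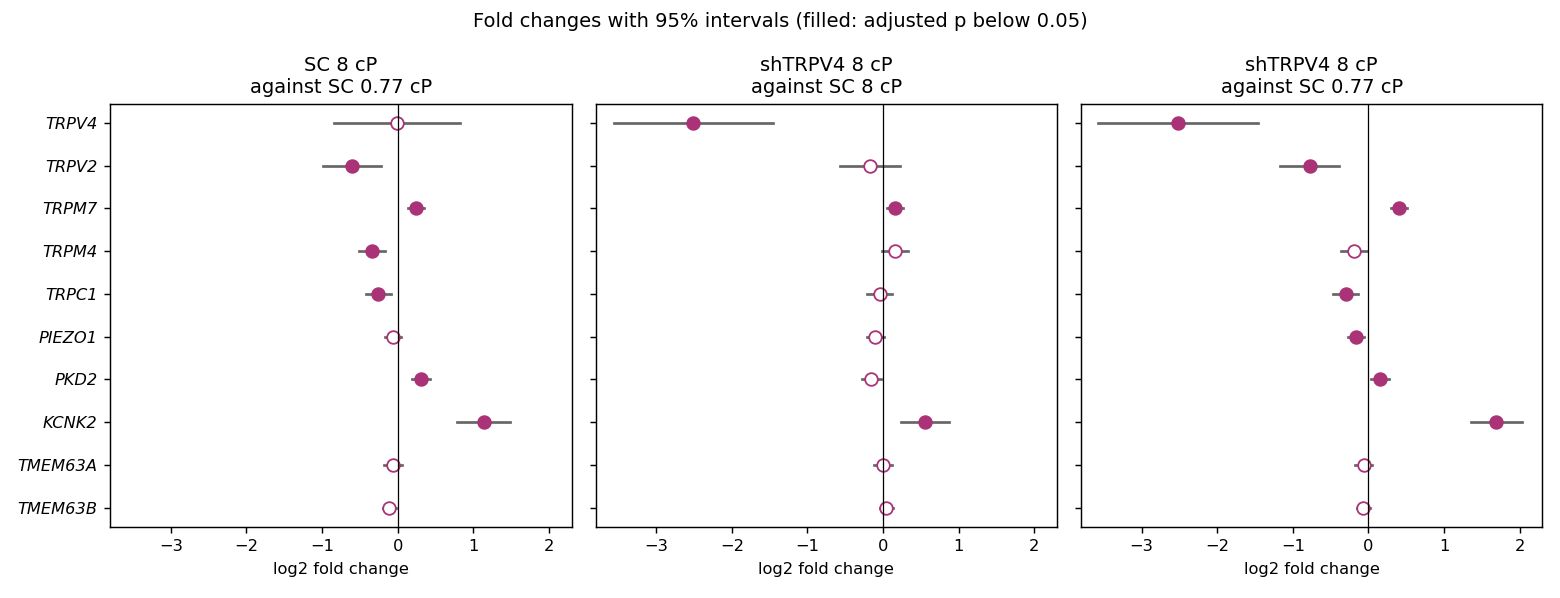
Log2 fold change of the 10 channel genes in the 3 comparisons, with 95% intervals as lines. Filled points passed an adjusted p of 0.05 in edgeR, 6 in the first panel, 3 in the second and 7 in the third; the panels share samples and are not independent.

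The comparison of shTRPV4 with SC cells at 8 cP asks whether another channel was higher where TRPV4 was depleted. The labels name a single shTRPV4 line, so the loss of TRPV4 and other properties of that line cannot be told apart in any value of this comparison, and ITGB1, the beta-1 integrin subunit, had a log2 fold change of -1.06 in the same samples. Beside TRPV4 itself, 2 of the other 9 channels passed the test, KCNK2 and TRPM7, both higher. Of all 10 genes 3 passed, 2 higher and 1 lower, against 20% of all tested genes, 9.02% higher and 11% lower. The median log2 fold change was -0.024 over the 10 genes and 0.00064 over all tested genes.

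KCNK2 stood at 3.78, 3.21 and 3.03 CPM in shTRPV4 cells, from 346, 251 and 274 counts, above the 1.87, 2.22 and 2.74 CPM of SC cells at 8 cP. The groups did not overlap, and the log2 fold change was 0.55 ± 0.15 (SE; 95% interval 0.24 to 0.87; adjusted p = 0.0149 in edgeR), a 1.47-fold higher level. The call was lost without SC 8 cP replicate 1 (log2 fold change 0.43, adjusted p = 0.0818 in edgeR), without SC 8 cP replicate 2 (0.53, adjusted p = 0.0585) and without shTRPV4 8 cP replicate 1 (0.45, adjusted p = 0.0630), and was kept in the other 6 fits that left out 1 sample.

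TRPM7 stood at 42.0, 39.0 and 38.0 CPM in shTRPV4 cells, above all SC samples at 8 cP. Its log2 fold change was 0.16 ± 0.051 (95% interval 0.053 to 0.27; adjusted p = 0.0356 in edgeR), a 1.12-fold higher level. The call was lost in 5 of the 9 fits that left out 1 sample, those without any of the 3 SC 8 cP samples or without shTRPV4 8 cP replicate 1 or 2, with log2 fold changes from 0.12 to 0.17 and adjusted p up to 0.146. It was also lost with no filter on low counts (0.16, adjusted p = 0.0615 in edgeR). Of the 10 genes, 1 passed without SC 8 cP replicate 1 (12.6% of all genes) and 1 without SC 8 cP replicate 2 (11.7%), in both cases TRPV4. With a doubling or halving also required, TRPV4 was again the 1 that passed, against 1.89% of all genes.

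On the length scale, the low starting level of TRPV4 bounds its loss. TRPV4 was lower in shTRPV4 cells than in SC cells at 8 cP by a difference of -0.0984 CPM per kilobase, from 0.118 to 0.0200, while KCNK2 was higher by 0.247 and TRPM7 by 0.338 CPM per kilobase. Among genes that did not pass, TMEM63B (0.443), PKD2 (-0.779) and PIEZO1 (-1.17) shifted by more than KCNK2 or TRPM7. TRPM4, with a difference of 0.184, shifted by less than either. The size of a shift on this scale thus sets no channel apart. KCNK2 passes potassium, and TRPM7 passes calcium and magnesium. RNA levels do not measure channel protein or current, neither of which is in these files.

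TRPV2, PIEZO1 and TRPC1 gave no call. TRPV2 stood at 1.07, 1.46 and 1.23 CPM in shTRPV4 cells, overlapping SC cells at 8 cP, with a log2 fold change of -0.18 and an interval from -0.57 to 0.22. PIEZO1 stood at 191, 181 and 177 CPM, with a log2 fold change of -0.10 and an interval from -0.21 to 0.0081, and TRPC1 had -0.047 with an interval from -0.21 to 0.12. For these 3 genes the upper ends of the intervals put any higher level in shTRPV4 cells at no more than 0.22 on the log2 scale.

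PKD2 stood at 41.0, 35.2 and 38.2 CPM in shTRPV4 cells, below all SC samples at 8 cP, and 2 of the 3 were above all SC samples at 0.77 cP. Its log2 fold change of -0.15 (interval -0.28 to -0.032) had an adjusted p of 0.0715 in edgeR, and it passed only without shTRPV4 8 cP replicate 1 (-0.21, adjusted p = 0.0171). TRPM4 stood at 10.9, 11.3 and 12.3 CPM with a log2 fold change of 0.16 and an interval from -0.012 to 0.33. The osmosensitive pair had intervals that span 0, TMEM63A with a log2 fold change of -0.00092 (interval -0.12 to 0.12) and TMEM63B with 0.043 (interval -0.047 to 0.13).

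Compared with SC cells at 0.77 cP, shTRPV4 cells at 8 cP differ in both hairpin and viscosity, and these cannot be told apart here. The comparison shares its samples with the other 2. Of the 10 genes 7 passed, 3 higher and 4 lower, where 42.4% of all tested genes passed, 20.4% higher and 22% lower. KCNK2 had the largest increase, with a log2 fold change of 1.69 ± 0.16 (adjusted p = 1.08e-06 in edgeR), followed by TRPM7 with 0.40 ± 0.051 (adjusted p = 1.73e-05) and PKD2 with 0.15 ± 0.057 (adjusted p = 0.0441). TRPV4 had -2.52 ± 0.49, TRPV2 had -0.78 ± 0.18, TRPC1 had -0.30 ± 0.077 and PIEZO1 had -0.16 ± 0.051 (adjusted p = 0.0188 in edgeR). Only KCNK2 and TRPV4 passed with a doubling or halving, a rule met by 4.64% of all genes. The samples of PKD2 overlapped between the groups. PIEZO1 lost its call without SC 0.77 cP replicate 1 or 3 or without shTRPV4 8 cP replicate 2 or 3 (log2 fold changes from -0.15 to -0.13, adjusted p up to 0.0917), and PKD2 lost its call without SC 0.77 cP replicate 1 or 2 or without shTRPV4 8 cP replicate 1 or 3 (0.097 to 0.16, adjusted p up to 0.196).

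Some reads of these genes could not be assigned with certainty. TRPM7 shares 390 exon bases on its own strand with an overlapping gene, and TRPV2 shares 145, both with genes at 0 counts in all 9 samples. PIEZO1 has 2292 exon bases in common with opposite-strand genes, of which 1427 and 695 are shared with long non-coding RNAs of 37 to 66 and 3 to 19 counts in a sample and 59 with CTU2, which had 1174 to 2055. TMEM63A shares 43 bases on its own strand with a long non-coding RNA of 43 to 106 counts, and 28 on the other strand with EPHX1. The libraries mark strand, but the strand setting used in counting is not given in the sources used here.

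The channels' surroundings were read from 5 lists of related genes, 121 genes in all, chosen by function. Of these, 80 were tested. In the viscosity comparison 18 of the 80 (22.5%) passed, 6 higher and 12 lower, against 19.3% of all tested genes. The count was 9 without SC 0.77 cP replicate 1 (7.58% of all genes), 10 without SC 0.77 cP replicate 2 (10.3%) and 9 without SC 8 cP replicate 3 (7.56%). In the knockdown comparison 26 (32.5%) passed, 11 higher and 15 lower, against 20%. With 1 sample left out 20 to 28 passed, where 11.7% to 20.5% of all genes did. The counts of single lists below stand beside the shares over all tested genes. These were 9.57% higher and 9.69% lower between viscosities, and 9.02% higher and 11% lower with the knockdown.

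Of 25 other TRP, polycystin and mucolipin channels, 9 were tested, and the other 16 had at most 12 counts in a sample. Between viscosities edgeR called 0 of the 9, DESeq2 called 0, and 3 had an unadjusted p under 0.05. The 4 with the smallest adjusted p were PKD1, the partner of PKD2 (-0.16, adjusted p = 0.0914 in edgeR), the heat- and capsaicin-gated TRPV1 (-0.38, adjusted p = 0.0986) and the lysosomal channels MCOLN1 (0.14, adjusted p = 0.111) and MCOLN3 (0.21, adjusted p = 0.247). The list median was 0.16. In shTRPV4 cells MCOLN3 was higher, at 5.29 ± 0.803 CPM against 4.09 ± 0.237 (log2 fold change 0.37, adjusted p = 0.0369 in edgeR), and the low TRPM3 was lower, at 0.122 ± 0.0271 CPM against 0.291 ± 0.0544 (-1.24, adjusted p = 0.0328). MCOLN1 (0.14, adjusted p = 0.102) and TRPV3 (0.77, adjusted p = 0.224) did not pass, and the list median was 0.17.

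Of 27 other tension- or swelling-linked channels, 19 were tested, and 1 was higher and 5 lower between viscosities, with a list median of -0.22. LRRC8D, a subunit of the volume-regulated anion channel, was higher at 8 cP, with 29.4 ± 2.39 CPM against 22.4 ± 2.09 (log2 fold change 0.39, adjusted p = 0.00233 in edgeR). SCNN1A, the alpha subunit of the epithelial sodium channel, was lower, with 25.4 ± 2.71 CPM against 35.7 ± 3.92 (-0.49, adjusted p = 0.00313), as were TMC6 (-0.40, adjusted p = 0.00459) and TMEM120A (-0.27, adjusted p = 0.00757). In shTRPV4 cells 4 were higher and 4 lower, with a list median of 0.13. LRRC8A, the obligatory subunit of the volume-regulated anion channel, was lower, with 172 ± 3.65 CPM against 209 ± 2.10 (-0.28, adjusted p = 0.000159 in edgeR). SCNN1A was lower again, at 18.0 ± 2.03 CPM (-0.50, adjusted p = 0.00205), TMC6 was lower (-0.42, adjusted p = 0.00224) and TMC5 higher (0.52, adjusted p = 0.00220). PIEZO2, the sister of PIEZO1, had 0 to 4 counts in a sample and was named after its counts were seen.

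Among 14 other two-pore potassium channels, the family of KCNK2, 4 were tested and the other 10 had at most 17 counts in a sample. Between viscosities KCNK6 was lower (-0.21, adjusted p = 0.0381 in edgeR), and KCNK1 (-0.21, adjusted p = 0.187), KCNK12 (0.37, adjusted p = 0.507) and KCNK7 (-0.0083, adjusted p = 0.987) did not pass. In shTRPV4 cells KCNK1 was lower, with 1.80 ± 0.178 CPM against 3.42 ± 0.261 (log2 fold change -0.92, adjusted p = 5.23e-05 in edgeR), while KCNK6 (-0.0065), KCNK12 (0.017) and KCNK7 (-0.075) did not pass. KCNK2 was thus the one tested member of this family that was called higher in either comparison, and the nearest relatives in sequence and gating, KCNK4 and KCNK10, had at most 3 counts in a sample; they were named after their counts were seen.

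Of 29 binding partners and modulators of the channels, 25 were tested, with 4 higher and 3 lower between viscosities and a list median of -0.0023. MDFI, an inhibitor of myogenic transcription factors that also binds PIEZO channels, was lower (-0.54, adjusted p = 0.00371 in edgeR), as was the phospholipase PLD2 (-0.30, adjusted p = 0.00435), which takes part in the opening of TREK-1 by force. ORAI1, the pore of store-operated calcium entry, was higher (0.25, adjusted p = 0.0103), as was the ubiquitin ligase NEDD4 (0.21, adjusted p = 0.0156). In shTRPV4 cells 4 were higher and 5 lower, with a list median of -0.034. The gene with the smallest adjusted p of this list was ITGB1, which has been proposed to take part in the mechanical activation of TRPV4. The paper reports, however, that lowering this integrin did not make calcium spikes fewer at elevated viscosity. ITGB1 stood at 1905, 2029 and 1857 CPM in SC cells at 0.77 cP and at 1918, 1946 and 1917 CPM at 8 cP. In shTRPV4 cells it stood at 894, 943 and 935 CPM. The shTRPV4 samples lay far below both SC groups, which overlapped, and the log2 fold change was -1.06 ± 0.046 (adjusted p = 2.60e-09 in edgeR). NEDD4 was higher (0.43, adjusted p = 5.53e-05), as was the kinase FYN (0.33, adjusted p = 0.000411), and OS9, which binds TRPV4 in the endoplasmic reticulum, was lower (-0.33, adjusted p = 0.000388).

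Of 26 calcium-activated effectors 23 were tested, with 1 higher and 3 lower between viscosities and a list median of -0.080. KCNN4, the calcium-activated potassium channel, was lower, with 87.2 ± 3.54 CPM against 103 ± 3.44 (-0.23, adjusted p = 0.00307 in edgeR), as were CAMKK1 (-0.26, adjusted p = 0.0115) and the calcineurin regulator RCAN1 (-0.23, adjusted p = 0.0124), whereas the kinase CAMK4 was higher (0.35, adjusted p = 0.0159). In shTRPV4 cells 2 were higher and 4 lower, with a list median of -0.11. CAMK2B, a calcium- and calmodulin-dependent kinase, was higher, with 3.08 ± 0.394 CPM against 1.07 ± 0.101 (log2 fold change 1.52, adjusted p = 7.08e-06 in edgeR), and RCAN1 was higher (0.30, adjusted p = 0.00207). KCNN4 was lower again, at 70.8 ± 0.732 CPM (-0.30, adjusted p = 0.000277), and so was the calcineurin catalytic subunit PPP3CB (-0.26, adjusted p = 0.000403).

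**Figure D4:**
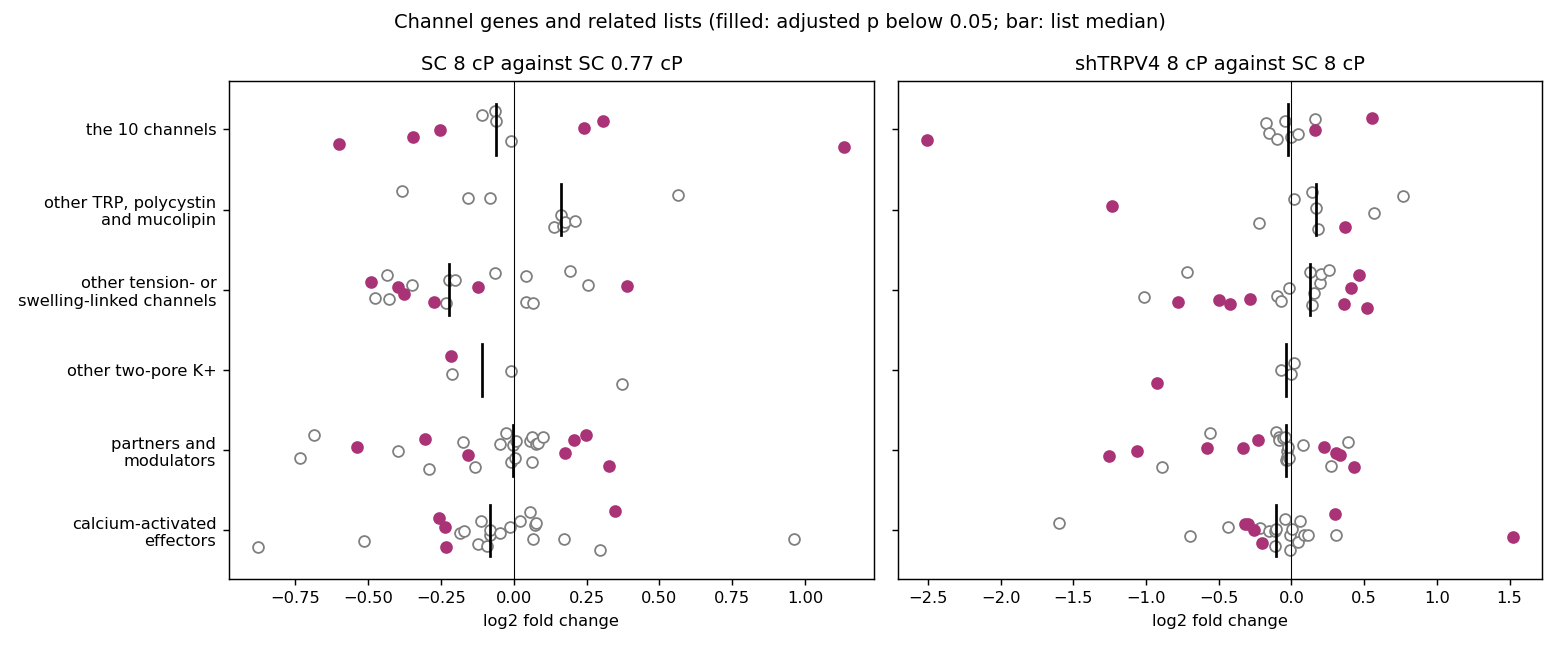
Log2 fold change of each tested gene of the 10 channels and of the 5 related lists, in the viscosity comparison on the left and in the knockdown comparison on the right, with filled points for an adjusted p below 0.05 in edgeR and a bar at each list median; vertical scatter within a list has no meaning. KCNK2 is the highest filled point on the left at 1.13, and CAMK2B at 1.52 and TRPV4 at -2.51 are the outermost filled points on the right.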

How the data were processed

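Poly(A) RNA of 9 samples was sequenced by the authors as directional paired reads, mapped with HISAT2 2.2.1 to GRCh38.p13 and counted over Ensembl genes with HTSeq 0.13.5, per the methods and the submitters' processing notes. The deposited values are raw counts per gene, with no normalization. Groups and replicate numbers came from the sample labels. Identifiers and exon lengths came from GENCODE 44, which matched 60463 of 60664 genes. Genes were kept with filterByExpr, scaled with TMM and tested with edgeR 4.0.16 (glmQLFit, glmQLFTest; R 4.3.3) with 1 coefficient per group over all 9 samples, and p-values were adjusted by Benjamini-Hochberg over 18264 genes at a threshold of 0.05. The procedure was tested on simulated data. CPM per kilobase used merged exons. With 3 samples per group an exact two-sided permutation test cannot go below p = 0.1, so single genes were tested in the fit across all genes only. The channels, lists and motifs were chosen with earlier results of these data known. Named beside the 10 channels were the 4 genes of each list with the smallest adjusted p, listed markers (1 is not reported here) and genes said to be chosen later. Alternatives were DESeq2 1.42.0, upper quartile scaling, other filters, 6-sample fits, a replicate block, a fold threshold, leaving out samples and canonical lengths. Intervals cover the spread between samples; the libraries have no molecular identifiers. No 2 samples of a group were identical, and all differed by more than sampling noise.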

Additional observations from a re-analysis of the deposited data

How the results depend on the processing

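Of the 30 fold changes of the 10 channels, each kept its side of the threshold under DESeq2 with its size factors and under the replicate block. All 27 that could be fitted did so where 10 counts were required in every sample, a filter that removes TRPV4. With upper quartile scaling and in fits of only the 6 samples compared, 29 of 30 did, the exception being PKD2 in the comparison that spans hairpin and viscosity (adjusted p = 0.0638 and 0.0591 in edgeR), and with no filter 29 of 30 did, the exception being TRPM7 in the knockdown comparison. Requiring a log2 fold change of 1 or more in size left 1 channel between viscosities (257 of all genes, 1.41%), 1 with the knockdown (345, 1.89%) and 2 in the comparison that spans both (847, 4.64%), and 0 and 4 of the related genes in the first and second comparison.

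With 1 sample left out, the number of channels called was 3 to 6 between viscosities, 1 to 3 with the knockdown and 5 to 7 in the comparison that spans both. Over all genes, 7.56% to 23.3%, 11.7% to 20.5% and 34% to 41.3% passed in these fits, in the same order. The number of related genes was 9 to 24 and 20 to 28, lowest between viscosities without SC 0.77 cP replicate 1 or 2 or SC 8 cP replicate 3. The TRPV4 log2 fold change was -3.27 to -2.06 with the knockdown, past the threshold each time, and -0.33 to 0.27 between viscosities. The numbers of calls over all genes fell to 1409 without SC 0.77 cP replicate 1, 1927 without SC 0.77 cP replicate 2 and 1418 without SC 8 cP replicate 3 in the viscosity comparison, and to 2361 and 2179 without SC 8 cP replicate 1 or 2 in the knockdown comparison.

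Same-numbered samples did not deviate together (correlations from -0.055 to 0.090 over 9 pairs, against -0.11 to 0.11 over 18 pairs of different numbers), so no pairing by number was seen. The labels do not say whether same-numbered samples were handled together. With the replicate block 6, 3 and 7 channels were called, where 19%, 19.7% and 42.3% of all genes were. Of the related genes, 17 and 25 were called in the first and second comparison. TRPV4 had log2 fold changes of -2.52 with the knockdown and -0.013 between viscosities. The count of TRPV4, at 1 to 64 per sample, limits what can be said of it between viscosities.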
